A study of Mus musculus with 24 samples.

Results

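The 4 Hox clusters were examined in peak lists of chromatin immunoprecipitation sequencing (ChIP-seq) for the pausing factors NELF and DSIF in mouse embryonic stem cells. All listed peaks overlapping 4 windows of the mm10 genome by at least 1 bp were taken. The windows were Hoxa on chromosome 6 from 52150000 to 52270000, Hoxb on chromosome 11 from 96190000 to 96380000, Hoxc on chromosome 15 from 102910000 to 103040000 and Hoxd on chromosome 2 from 74660000 to 74770000. They span 550 kb and hold 39 Hox genes, 11 in Hoxa, 10 in Hoxb, 9 in Hoxc and 9 in Hoxd. Of 1811308 peaks in the 6 lists, 579 lay in these windows, 133 in Hoxa, 209 in Hoxb, 129 in Hoxc and 108 in Hoxd.

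Hox genes encode homeodomain transcription factors that give segments of the embryo their identity along the head-to-tail axis. They lie side by side in each cluster, are switched on in the order of their position, and carry Polycomb-deposited chromatin marks while they are silent in embryonic stem cells. NELF and DSIF are the complexes that hold RNA polymerase II shortly after the start of a gene, and DSIF also travels with the polymerase during elongation. Members of different clusters with the same number, such as Hoxb4 and Hoxd4, are paralogs, and low numbers mark the end of the cluster that is activated first.

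The cells were the mouse embryonic stem cell line E14, grown in serum/LIF and carrying the genotype given as Nelfb deg, which all groups shared, controls included. The 6 analysed libraries were labelled Control, with 2 for each of 3 antibodies: an HA-Tag antibody on tagged NELFB (NELFB:HA), an antibody to the NELF subunit NELFE, and an anti-DSIF antibody, labelled SPT5. The other 18 of 24 samples, among them those treated with the degrader dTAG-13, were not analysed here. The labels do not say whether duplicates came from separate cultures or whether the line is 1 clone, so p-values measure only the spread between these libraries.

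The lists held between 137102 and 462153 peaks from 27324697 to 62312558 filtered tags, and most peaks were weak. A peak is called strong below where its deposited false discovery rate (q) was 0.01 or less. In the order NELFB:HA 1 and 2, NELFE 1 and 2, SPT5 1 and 2, used below for any row of 6 values, that held for 2.97%, 1.85%, 5.52%, 5.42%, 1.51% and 6.08% of all peaks. Since the lists differ in length, a peak's strength is given as its rank by p-value in its own list, with 1 the strongest, or as that rank in percent of the list. A gene's mean rank is the mean of these percentages over the 6 libraries at its strongest peak, where a library without a peak counts as 100%, so a high mean can come from missing peaks. Embryonic stem cell markers were looked up, and 7 of 8 listed had a promoter in the reference table. Klf4, Tdgf1, Zfp42, Sox2 and Pou5f1 had a strong peak in all 6 libraries, Nanog in 2, and Esrrb in none. Of other protein-coding genes, 29.5% had a strong peak in all 6 and 51.1% in none. Whether these peaks mark cell identity was not tested. The NELF libraries had tags of 50 bp and the SPT5 libraries of 100 and 101 bp with 1 input in common, so antibody and sequencing set cannot be told apart between NELF and SPT5.

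Promoter sequences of 3 Hoxd genes are shown as examples of the peak strengths met at Hox starts: Hoxd13 with strong peaks, Hoxd1 with 1 peak at a q of 0.05 or less that was not strong, and Hoxd12 with no peak near its start in any library. Each is the RefSeq promoter of the GRCm38.p6 assembly (mm10) on the plus strand, from 250 bases before the start to 50 after, with CpG dinucleotides in capitals. They lie at chr2:74667975-74668274, chr2:74762730-74763029 and chr2:74674763-74675062, in that order.
Hoxd13: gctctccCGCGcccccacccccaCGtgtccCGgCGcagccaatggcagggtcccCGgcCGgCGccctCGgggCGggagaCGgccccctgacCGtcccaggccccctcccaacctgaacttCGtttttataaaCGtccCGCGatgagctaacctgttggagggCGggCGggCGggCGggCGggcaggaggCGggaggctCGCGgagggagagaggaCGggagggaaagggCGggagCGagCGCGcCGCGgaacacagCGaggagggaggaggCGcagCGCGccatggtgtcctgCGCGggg
Hoxd1: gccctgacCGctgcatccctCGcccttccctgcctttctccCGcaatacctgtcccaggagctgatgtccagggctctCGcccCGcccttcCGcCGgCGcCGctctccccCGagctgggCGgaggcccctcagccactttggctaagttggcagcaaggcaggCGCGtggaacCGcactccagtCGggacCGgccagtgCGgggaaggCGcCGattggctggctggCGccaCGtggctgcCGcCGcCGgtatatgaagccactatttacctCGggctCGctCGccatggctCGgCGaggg
Hoxd12: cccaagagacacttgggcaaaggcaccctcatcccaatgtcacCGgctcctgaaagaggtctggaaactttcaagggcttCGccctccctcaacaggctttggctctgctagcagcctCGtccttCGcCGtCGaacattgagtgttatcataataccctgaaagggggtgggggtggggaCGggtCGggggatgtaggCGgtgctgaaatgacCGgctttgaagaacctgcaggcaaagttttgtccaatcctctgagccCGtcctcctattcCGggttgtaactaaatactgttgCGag
The Hoxd13 promoter held 37 CpG and 74.3% GC, that of Hoxd1 29 CpG and 69.7% GC, and that of Hoxd12 13 CpG and 55.0% GC. Over the 24 promoters of 22 Hox genes in the table the median was 14.5 CpG (4 to 45), against 13 over 21238 promoters of 17469 other protein-coding genes. CpG number and peak strength did not go together throughout: Hoxa13, with the most CpG (45), had only weak peaks, of 1.58, 1.70 and 1.58-fold in 3 libraries, and Hoxa5, with 29 CpG like Hoxd1, had no peak at a q of 0.05 or less. The letters CCAAT, searched on both strands, were in 15 of the 24 Hox promoters (62.5%) and in 38.2% of the others. The letters TATAAA, also searched on both strands, were in 4 (16.7%) and in 12.6% of the others. Hoxd13 held both motifs, while Hoxd1 and Hoxd12 held CCAAT without TATAAA. These are matches of letters in 300 bases, and were not tested for use.

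Peaks covered more of the Hox clusters than of the rest of the genome, but few of them were strong. Of the 579 Hox peaks, 6 were strong, 2 in NELFB:HA 1, 1 in NELFB:HA 2, 1 in NELFE 1, 2 in NELFE 2 and none in either SPT5 library. In percent of Hox peaks this is 2.04, 0.826, 1.25, 2.04, 0 and 0 in that order, below the genome-wide shares of 2.97, 1.85, 5.52, 5.42, 1.51 and 6.08 in every library. The mean difference from peaks elsewhere was -2.87 percentage points (SD 2.07, n = 6, lower in 6 of 6 libraries). In the two-sided exact sign-flip permutation test over libraries p was 0.03125, the smallest that 6 libraries can give, and 0.0781 after Benjamini-Hochberg adjustment over the 5 comparisons of Hox with the rest, so it did not pass 0.05.

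**Figure D1:**
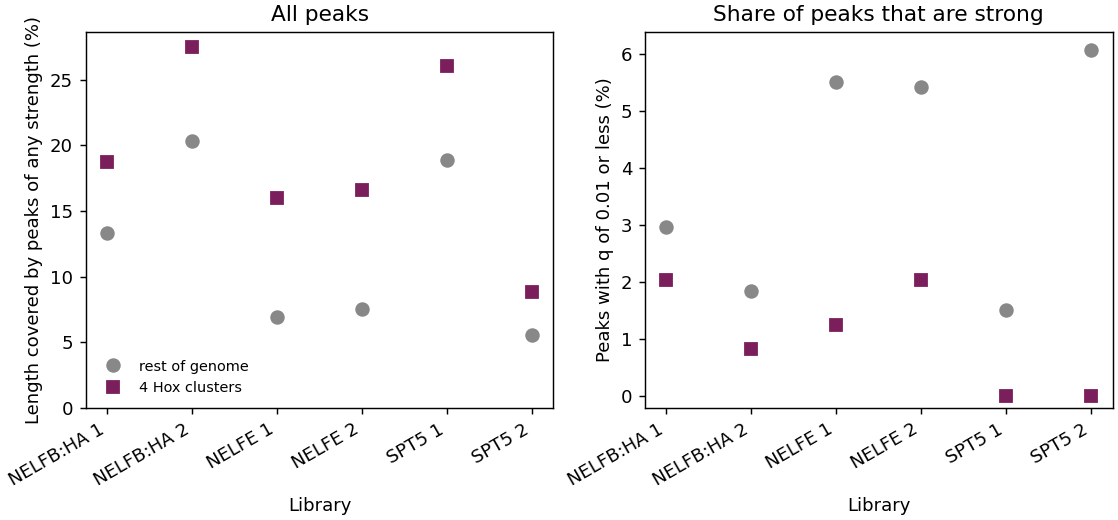
The left panel plots the percent of sequence covered by peaks of any strength and the right panel the percent of peaks with q of 0.01 or less, for the 4 Hox clusters (squares) and the rest of the genome (circles) in each library. The squares lie above the circles on the left in 6 of 6 libraries and below them on the right in 6 of 6.

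In the 4 NELF libraries, peaks of any strength covered 18.7%, 27.5%, 16.0% and 16.6% of the Hox windows, against 13.3%, 20.3%, 6.90% and 7.52% of the rest of the genome. In the 2 SPT5 libraries the coverage was 26.0% and 8.78%, against 18.9% and 5.56%. The Hox coverage was the higher in 6 of 6 libraries, by 6.86 percentage points on average (SD 2.24, n = 6). Its exact sign-flip permutation p was 0.03125 and its adjusted p of 0.0781 did not pass 0.05. Counting all peaks was an alternative to the main setting of strong peaks. The genome span used, 2722.44 Mb, includes gaps and unmappable sequence, which lowers the second value of each pair. For strong peaks alone the order was the other way on average. They covered 0.906%, 0.203%, 0.905%, 0.666%, 0 and 0 of the Hox windows, against 0.880%, 0.823%, 0.814%, 0.929%, 1.06% and 1.08% of the rest. This difference of -0.485 points (SD 0.520, n = 6) was lower in 4 of 6 libraries and did not pass the exact permutation test (p = 0.125, adjusted p = 0.208). In windows widened by 10 kb on each side it was -0.542 (SD 0.466, exact permutation p = 0.03125, adjusted p = 0.0521). In windows narrowed by 10 kb on each side it was -0.813 (SD 0.353, exact permutation p = 0.03125, adjusted p = 0.0521). Narrowing cuts away most of the sequence under the strong Hox peaks, which lie near window edges, so a larger deficit there is built in.

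Within the lists, the rank of Hox peaks differed from that of other peaks in both directions. Their median rank stood at 39.6%, 50.5%, 53.4%, 60.3%, 38.5% and 60.1% of the list, where peaks elsewhere stood near 50%. The difference was 0.409 points (SD 9.57, n = 6, exact permutation p = 0.906, adjusted p = 0.906), with 4 libraries weaker and 2 stronger. Ranked by fold enrichment instead, the difference was 10.7 points toward weaker ranks (SD 15.5, exact permutation p = 0.156). In NELFB:HA 1 and SPT5 1 Hox peaks ranked better than peaks elsewhere. Over the 6 libraries, the median fold enrichment of Hox peaks over input lay between 1.57 and 1.79, and that of whole lists between 1.64 and 1.87. The Hox median was the higher in NELFB:HA 1 (1.66 against 1.64) and SPT5 1 (1.70 against 1.68), and the lower in the other libraries. Hox peaks were between 206 and 7598 bp wide. In the 4 libraries with strong Hox peaks, these were on average 643 bp wider than strong peaks elsewhere (SD 1901, wider in 3 of 4, exact permutation p = 0.625, adjusted p = 0.781), a difference smaller than its spread.

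At promoters the clusters and other genes lay far apart. A promoter was counted where a strong peak came within 1000 bp of the start. This was so for 2, 1, 1, 2, 0 and 0 of the 39 Hox genes, while the share of the 17469 other protein-coding genes was 43.3%, 37.5%, 44.7%, 45.6%, 32.6% and 37.2%. In percent, the Hox values were 5.13 (exact 95% interval 0.627 to 17.3), 2.56 (0.0649 to 13.5), 2.56, 5.13, 0 and 0 in library order. For the 0 of 39 in each SPT5 library the exact interval reaches up to 9.03%, and the limit of 3 counts is 7.69%. The mean was 2.56% for Hox genes and 40.2% for the others, a difference of -37.6 points (SD 3.51, n = 6, range -42.2 to -32.6, lower in 6 of 6 libraries). Its exact sign-flip permutation p was 0.03125, the smallest possible, and its adjusted p of 0.0781 did not pass 0.05. Intervals and limits of this kind cover counting error only.

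**Figure D2:**
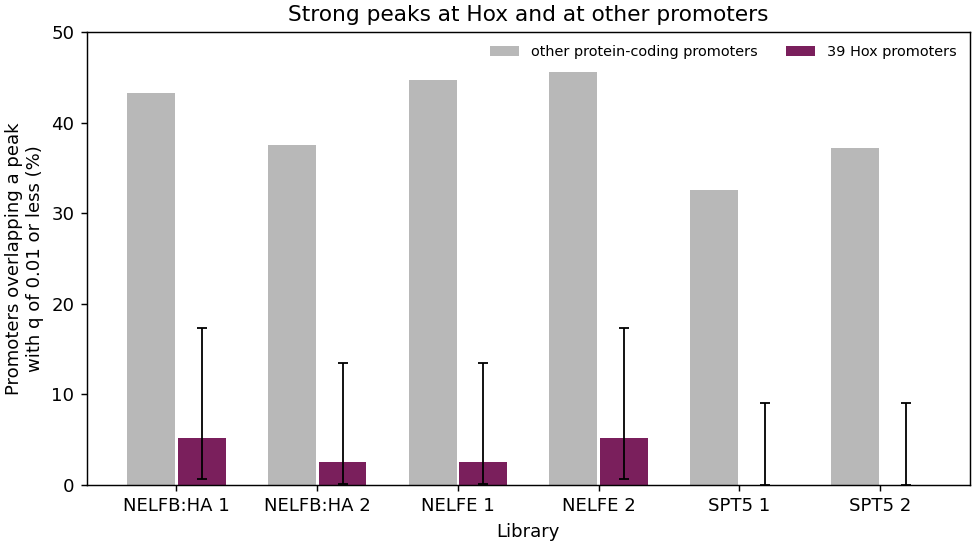
Percent of promoters with a peak of q 0.01 or less within 1000 bp of the start, by library, for the 39 Hox genes (with exact 95% binomial intervals) and 17469 other protein-coding genes. Hox values lie between 0 and 5.13%, those of other genes between 32.6% and 45.6%, and no interval reaches the other genes' value.

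Counted over libraries, 37 of 39 Hox genes (94.9%) had a strong peak at the start in none of the 6, against 51.1% of other genes. No Hox gene had one in all 6, against 29.5% of other genes.

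Weak peaks at Hox starts were common. A peak of any strength lay within 1000 bp of 24, 28, 25, 21, 29 and 20 of the 39 starts, or 61.5%, 71.8%, 64.1%, 53.8%, 74.4% and 51.3%. The shares of other genes were 73.6%, 78.0%, 66.8%, 68.4%, 78.1% and 60.2%, higher in each library. The strongest such peak of a Hox gene had a median rank of 25.8%, 49.2%, 26.7%, 65.5%, 40.7% and 54.1% of the list, and that of another gene between 2.01% and 4.51%. Median fold enrichment was 1.59 to 1.86 at Hox starts and 2.17 to 3.89 at the others. A peak was found in 6 of 6 libraries at 5 genes, among them Hoxa4, Hoxb4, Hoxc13 and, searched around 2 starts, Hoxd11. It was found at 8 genes in 5, 11 in 4, 8 in 3, 3 in 2 and 3 in 1, and Hoxd12 had none. Counts by number of libraries are not given for weak peaks at other genes.

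**Figure D3:**
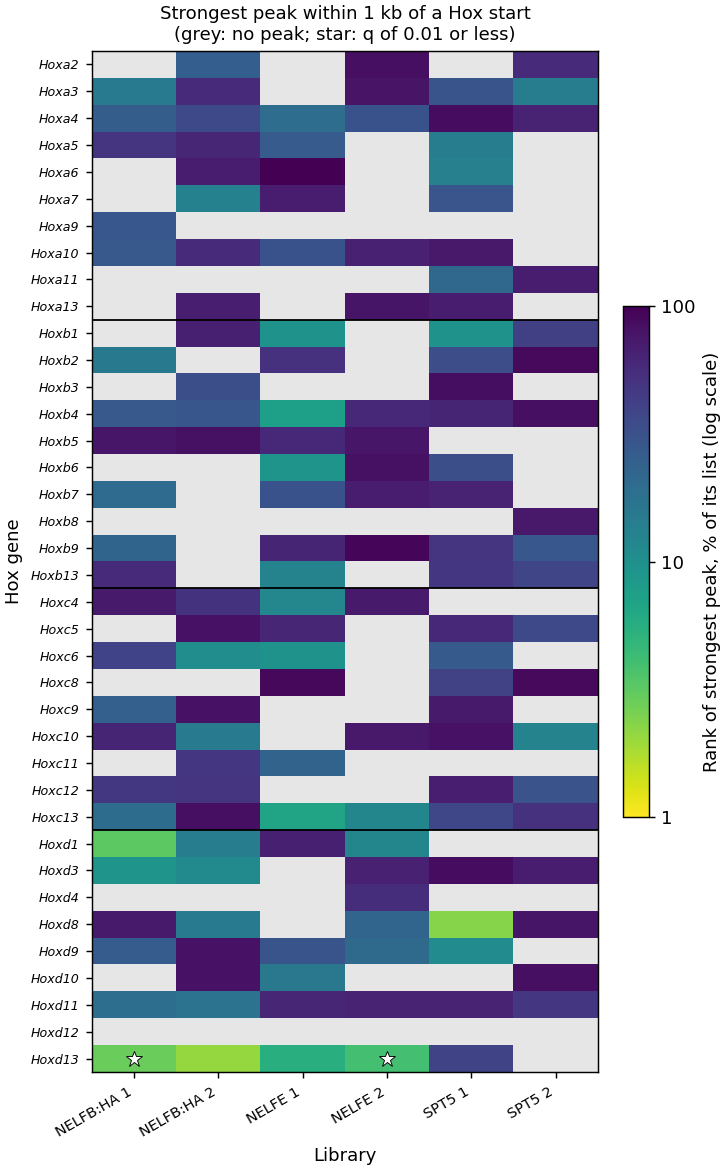
Each cell is the rank of the strongest peak within 1 kb of a Hox start, in percent of its library's list (colour, log scale), with the Hox genes reported here in rows by cluster and 6 libraries in columns. Stars mark q of 0.01 or less, at Hoxd13 in NELFB:HA 1 and NELFE 2, and grey cells have no peak, as for Hoxd12 in all 6 libraries.

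Of the 6 strong peaks, 4 lay in the Hoxa window and 2 in the Hoxd window. Both in Hoxd were at Hoxd13, which patterns the distal limb and the hind end of the trunk.

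Hoxd13 lies on the plus strand of chromosome 2 from 74668225 to 74671603. Its peaks had a fold enrichment of 2.57, 2.16, 2.19, 3.32 and 1.63 in the first 5 libraries, and SPT5 2 had no peak within 1000 bp. On the −log10 scale q was 2.29, 1.39, 1.97, 5.33 and 0.0691, so NELFE 1 and NELFB:HA 2 fell short of 2. The peaks of the NELF libraries reached over the start, for example from 74667442 to 74670115 in NELFB:HA 1 and from 74667103 to 74668731 in NELFE 2. The CpG-dense promoter printed above, with 37 CpG, lies in these peaks. In rank the NELF peaks stood at 9815, 9250, 11413 and 8669, where the first peak above q of 0.01 stood at 9879, 7927, 10951 and 11411. The peak of NELFB:HA 1 was thus at the edge of the strong peaks and that of NELFE 2 well inside it.

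**Figure D4:**
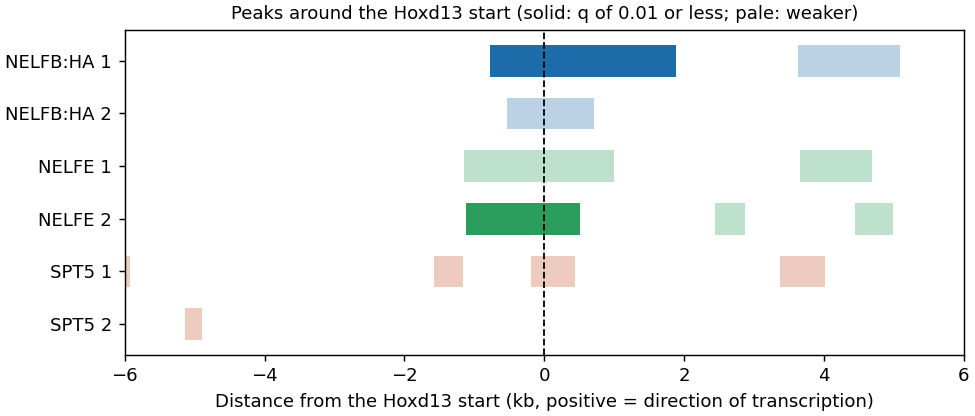
Peaks within 6 kb of the Hoxd13 start, drawn as bars by distance in kb from the start (dashed line), positive in the direction of transcription, with 1 row for each library. Solid bars, in NELFB:HA 1 and NELFE 2, have q of 0.01 or less and reach over the start.

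At a q of 0.05 or less the count rose to 10 peaks, among them 4 at Hoxd13 and 1 at Hoxd1. At starts, 3, 2, 2, 2, 0 and 1 of the 39 Hox genes then had such a peak, against 45.7%, 40.8%, 46.9%, 47.8%, 37.1% and 40.2% of other genes. The Hoxd1 peak was in NELFB:HA 1, from 74762759 to 74763388, with 2.18-fold enrichment, −log10 q of 1.41 and rank 10874. Hoxd1 had fold values of 1.72, 1.71 and 1.90 in NELFB:HA 2, NELFE 1 and NELFE 2, and no peak in either SPT5 library. The 36 genes with no peak at this threshold had a peak in 132 of 216 pairs of gene and library, with fold enrichment from 1.48 to 2.35 (median 1.70). Of these 132 peaks, 8 ranked within 10% of the top of a list, as 10% of all peaks do. The genes were picked for having no peak at a q of 0.05 or less, which leaves out top-ranked peaks. A share below 10% is therefore in part built in, and no deficit can be read from it. The best-ranked of the 132 peaks was at Hoxd8 in SPT5 1, at 2.24-fold, −log10 q of 0.858 and rank 10665, 2.31% of its list. Hoxd8 was singled out here after its value was seen.

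In Hoxa, Hoxa4 had a mean rank of 43.6% of the list and Hoxa3 of 49.1%, 2 genes which act in the neck region of the embryo. Hoxa4 had fold values of 1.73, 1.73, 1.89, 1.94, 1.48 and 1.52 in library order, lowest in the SPT5 libraries. Hoxa3 had 1.81, 1.57, 1.67, 1.73 and 1.85 in 5 libraries and no peak in NELFE 1. Hoxa9, a regulator of blood progenitors, had the weakest mean rank of the cluster (88.1%), since 5 libraries had no peak. Its single peak, of 1.73-fold in NELFB:HA 1, stood at 28.8% of that list. No strong peak occurred at these genes.

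In Hoxb, which patterns the hindbrain at its low-numbered end, the 3 best were Hoxb4 (44.8%), Hoxb1 (54.5%) and Hoxb13 (59.4%). Hoxb4, known for its effect on blood stem cells, had 1.68, 1.76, 2.35, 1.83, 1.56 and 1.52-fold, highest in NELFE 1. Hoxb1, a hindbrain gene and retinoic acid target, had peaks of 1.54-fold in NELFB:HA 2, 2.14-fold in NELFE 1 and 1.99 and 1.71-fold in the SPT5 libraries. Hoxb13, the outlying gene of the cluster, ranged from 1.61 to 2.07-fold in 4 libraries. Hoxb8 had 1 peak, of 1.54-fold in SPT5 2, at 72.8% of that list, which gives the weakest mean rank of the cluster (95.5%).

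In Hoxc, the best were Hoxc13 (35.0%), a hair and nail gene, Hoxc6 (47.8%) and Hoxc10 (57.2%). Hoxc13 had 1.73, 1.52, 2.24, 2.20, 1.65 and 1.55-fold, with both NELFE libraries above the other 4. Over whole lists the median fold was also highest in the NELFE libraries, at 1.77 and 1.87 against 1.64 to 1.70 in the others. Hoxc6 lacked a peak in NELFE 2 and SPT5 2 and reached 1.97-fold in NELFE 1. Hoxc10 ranged from 1.50 to 1.90-fold in 5 libraries, and Hoxc8 (86.9%) from 1.50 to 1.69-fold in 3.

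In Hoxd, Hoxd13 (25.6%) was followed by Hoxd9 (44.5%) and Hoxd11 (45.5%), which act in the limb and the lower trunk. Hoxd9 had 1.68, 1.51, 1.82, 2.09 and 1.92-fold and no peak in SPT5 2. Hoxd11, with 2 starts in the promoter table, had a peak near at least 1 of them in all 6 libraries, between 1.60 and 1.85-fold. More sequence was searched for it than for a gene with 1 start, which favours its mean rank. Hoxd12, which lies between Hoxd13 and Hoxd11, had no peak.

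Compared as whole clusters, Hoxa and Hoxd were the ones with strong peaks, and Hoxb and Hoxc had none in any of the 6 libraries. The best peak of Hoxb ranked between 13337 and 36862, that of Hoxc between 13741 and 28076, and that of Hoxd between 8669 and 59181. Hoxd had the best of these 3 ranks in 5 of 6 libraries, and the worst in SPT5 2. In percent of the list, the mean best rank was 6.49 ± 2.35 (SD, n = 6) for Hoxc, 10.0 ± 16.3 for Hoxd and 10.1 ± 9.02 for Hoxb. Neighbours in this order do not differ beyond their spread. The order depends on the libraries: without those numbered 2 the means were 5.10 for Hoxc, 3.59 for Hoxd and 5.18 for Hoxb, and without those numbered 1 they were 7.88, 16.4 and 15.0.

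**Figure D5:**
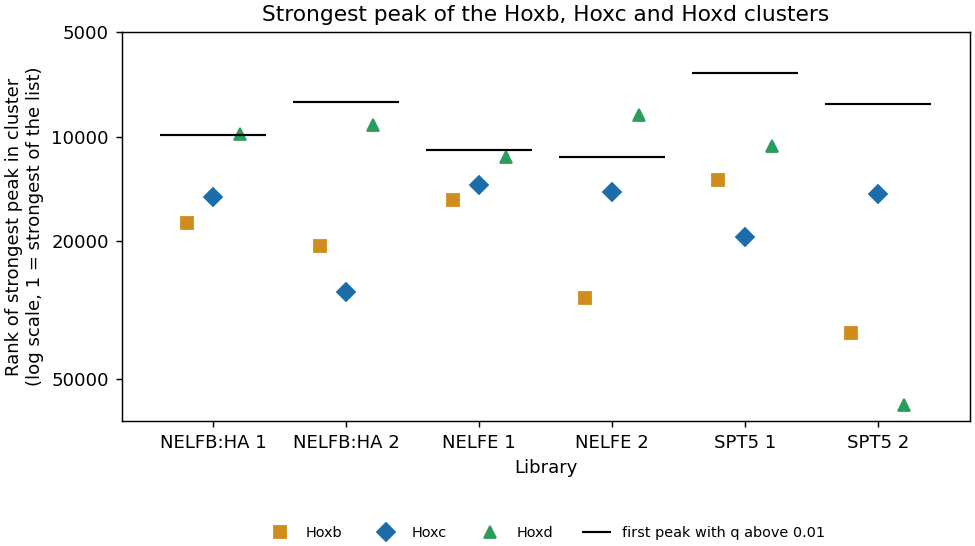
Rank of the strongest peak in the Hoxb, Hoxc and Hoxd clusters (log axis, 1 = strongest of the list) by library. Black lines give the first rank with q above 0.01. Hoxb and Hoxc lie below the line throughout, between 13337 and 36862, and Hoxd lies above it in NELFB:HA 1 and NELFE 2.

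Strong peaks covered 1.45% of Hoxa and 0.652% of Hoxd on average over the 6 libraries, and none of Hoxb and Hoxc. The difference was 1.45 points (SD 1.55, n = 6) between Hoxa and either of Hoxb and Hoxc, with Hoxa higher in 4 libraries and equal at 0 in the SPT5 libraries (exact permutation p = 0.125, adjusted p = 0.375 over 6 pairs). Hoxa and Hoxd differed by 0.798 points (SD 1.71, exact permutation p = 0.375, adjusted p = 0.6, higher in 3 of 6). Hoxd exceeded Hoxb and Hoxc in 2 libraries (exact permutation p = 0.5, adjusted p = 0.6). No pair of clusters differed past 0.05. In windows narrowed by 10 kb on each side, Hoxa exceeded Hoxb and Hoxc by 0.539 points and Hoxd by 0.517, while Hoxb or Hoxc minus Hoxd was -0.0215 (exact permutation p = 1 for each). Narrowed this way, the windows lose most of the sequence under strong Hox peaks. The density of peaks of any strength was close, at 18.5 ± 7.06 peaks per 100 kb in Hoxa, 18.3 ± 5.07 in Hoxb, 16.5 ± 4.34 in Hoxc and 16.4 ± 5.48 in Hoxd (SD, n = 6).

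Between antibodies, the Hox windows had strong NELF peaks and no strong SPT5 peak. Mean coverage by strong peaks was 0.555% with the HA-Tag antibody, 0.785% with NELFE and 0 with SPT5, from the values per library given above. NELFB:HA and NELFE differed by -0.231 points, less than the pooled SD of 0.371 (exact permutation p = 1). NELFB:HA exceeded SPT5 by 0.555 points (pooled SD 0.351) and NELFE exceeded it by 0.785 (pooled SD 0.119), each with an exact permutation p of 0.333 and an adjusted p of 0.5. With 2 libraries against 2, 0.333 is the smallest p possible, so no difference between antibodies can pass 0.05. Narrowing the windows by 10 kb on each side leaves out the Hoxd13 start and most of the sequence under strong Hox peaks. The coverage differences to SPT5 were then 0.0123 points for NELFB:HA and 0.344 for NELFE (exact permutation p = 1 for both). In share of the 39 promoters the means were 3.85%, 3.85% and 0, with differences of 0, 3.85 and 3.85 points (exact permutation p = 1, 0.333 and 0.333). Outside the Hox windows, strong SPT5 peaks covered 1.06% and 1.08% of sequence, more than the 0.814% to 0.929% of the NELF libraries. At promoters of other protein-coding genes the order was the other way. A strong peak was there in 32.6% and 37.2% with SPT5, against 37.5% to 45.6% in the NELF libraries.

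Hox peaks recurred unevenly over the lists. Merged over the 6 lists, the peaks formed 197 regions, of which 68 came from 1 library, 43 from 2, 31 from 3, 15 from 4, 26 from 5 and 14 from all 6. Of these 14, 5 were in Hoxa, 6 in Hoxb, 3 in Hoxc and none in Hoxd. No such counts are given for the rest of the genome, so these describe the Hox windows only. Among those without a strong peak, the best mean rank was 13.3% of the list, for a region within and just beyond Hoxc9, at chr15:102978884-102985242. Next came the region upstream of and over Hoxc12, at chr15:102929933-102938038, with 20.6%. Both were picked for their rank.

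In library order, 58.2%, 48.8%, 43.8%, 35.7%, 18.8% and 48.1% of Hox peaks overlapped a peak of the other library with the same antibody. Peaks elsewhere did so in 48.7%, 36.8%, 29.0%, 27.1%, 17.1% and 59.4%, so the Hox share was the higher in 5 of 6 libraries. For strong peaks elsewhere it was between 99.28% and 99.87%. These shares rise with the length of the other list and with peak width. They also rise with the share of sequence that the other list covers, which was higher in the Hox windows than elsewhere in every library. Whether Hox peaks recurred more than this coverage gives was not tested, and no test was made of the shares.

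Regulators of the Hox genes were measured at their starts in the same way. All 12 Polycomb genes with a promoter in the table, of 14 listed, had a strong peak in at least 1 library, and 8 in all 6. Ezh2 and Suz12, core subunits of the complex that methylates histone H3 at Hox genes, stood at 0.427% and 0.723% of the list, with 3.16 to 10.6-fold enrichment at Ezh2. Bmi1 (6.39%) and Ezh1 (21.0%) ranked lowest. Of 7 listed trithorax and UTX genes 4 were in the table, and of these Wdr5 and Kdm6a had strong peaks in all 6 libraries, Kmt2a in 3 and Men1 in 1. Of all other protein-coding genes, 29.5% had a strong peak in all 6 libraries and 51.1% in none, and no difference of a list from these shares was tested.

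For the Hox cofactors, DNA-binding partners of Hox proteins, the table held 5 of 9 listed. Of these, 0 had a strong peak in all 6 libraries and 3 (60.0%) in none, near the 51.1% of other genes. Pbx4 (6.46%) and Meis1 (7.66%) ranked best, and Meis3 (52.3%) and Meis2 (89.0%, with a peak in 1 library) lowest. It held 5 of 6 listed ParaHox genes and upstream regulators, of which Gsx1 was strong in 1 library and the other 4, Cdx2, Pdx1, Gsx2 and Cdx4, in none. Retinoic acid genes, which act upstream of the early Hox genes, covered a wide range. With 9 of 10 in the table, the receptor gene Rxrb (0.573%) was strong in 6 of 6, Rara (4.0%) in 3, and Stra8 and the retinoic acid-degrading Cyp26b1 in none. In all, 5 of the 9 (55.6%) had none, also near the share of other genes.

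Of 21 listed genes in or beside the clusters that are no Hox genes, 20 were measured. Those in the promoter table were measured at the start, the others over the whole gene or around the hairpin, so the counts mix these measures. A strong peak was found in all 6 libraries for 4 (20.0%) and in none for 14 (70.0%), where the shares of other genes at their starts were 29.5% and 51.1%. Mtx2, with its start 55.8 kb outside the Hoxd window, had 4.05 to 8.27-fold enrichment, and Skap2, 137 kb outside Hoxa, had 2.87 to 7.87-fold. Their mean ranks were 1.13% and 1.36% of the list. Evx2, a homeobox gene 0.443 kb outside the Hoxd window, had peaks in 4 libraries, of 1.55 to 1.81-fold and none strong.

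The miRNAs within the clusters, singled out after their values were seen, had no strong peak within 1000 bp of the hairpin. They are printed since they are paired across clusters like the Hox paralogs. The mature RNAs, from RefSeq, are given with the seed (bases 2 to 8) in capitals.
mmu-miR-10a-5p: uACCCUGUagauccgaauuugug
mmu-miR-10b-5p: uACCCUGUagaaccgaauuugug
mmu-miR-196a-5p: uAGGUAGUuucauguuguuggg
mmu-miR-196b-5p: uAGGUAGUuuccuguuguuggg
Both miR-10 RNAs share the seed ACCCUGU and differ by U12A, counted from the 5′ end with the base of miR-10a first. Both miR-196 RNAs share AGGUAGU and differ by A12C, with the base of miR-196a first. Mir10a in Hoxb had weak peaks in 5 libraries (1.52 to 2.35-fold) and Mir10b in Hoxd in 4 (1.50 to 2.00-fold). Mir196a-1 and Mir196a-2 had them in 3 each and Mir196b in 2. Since a hairpin lies close to Hox genes, these peaks can be the same as those counted at Hox starts: that of Mir10a overlaps the Hoxb4 region.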

How the data were processed

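The 6 deposited peak lists were used as the authors made them. Per the file headers, peaks were called for each library with MACS 2.1.1.20160309 against inputs (5 in all), as broad regions with p cutoffs of 0.01 and 0.1, with fragments extended to 227 bp (NELF) or 206 bp (SPT5) and 1 tag kept per position. Per the submitters' processing notes, Bowtie2, deepTools, MACS2 and mm10 were used. The deposited values are a mean pileup signal, a fold enrichment over input (ratio), and −log10 p and −log10 q, all per peak. A header line says that q would be reported as -1, although q is listed for each peak, without that code, and was used as deposited.

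Ranks by −log10 p, coverage and promoter overlaps (start ± 1000 bp) were computed with Python 3.11.15, pandas 2.3.3 and SciPy 1.17.1. Of 39 Hox starts, 22 came from the RefSeq promoter table and 17 from the upstream end of the gene on the cluster's strand. Differences per library were tested by two-sided exact sign-flip permutation, antibodies by exact permutation, with Benjamini-Hochberg adjustment. The code was tested on simulated data. Same-numbered libraries were not treated as pairs, since the labels give no shared source. Across 11, 10 and 6 Hox promoters the differences between replicates of 2 antibodies had Spearman correlations of -0.255, -0.152 and 0.0857, none above a correlation of 0.1. So few promoters, mostly with weak peaks, cannot show whether a source was shared. Alternatives were other q thresholds, windows, flanks, rankings and leaving out replicates.

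Values are printed for the 3 best and 1 weakest Hox gene of each cluster by mean rank, for 2 highest and 2 lowest genes of each pathway list, and for up to 4 neighbours. Results on 1 item that this rule would name are not reported here. The members and lists were chosen with earlier results of these data known.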

Additional observations from a re-analysis of the deposited data

How the results depend on the processing

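Of 182 alternative values for 25 results, 162 kept their direction and side of the threshold or, for values with no test, stayed within 1 SD, but their sizes could move: with narrowed windows NELFB:HA minus SPT5 coverage was 0.0123, ranking by fold gave 10.7 for the rank difference, and without a threshold the promoter difference was -8.01. Without a threshold, so that all peaks count, 7 differences changed sign: coverage of Hox against the rest of the genome (6.86 points), NELFB:HA minus NELFE (6.84) and NELFE minus SPT5 (-1.13), Hoxa minus Hoxb (-1.81), Hoxb minus Hoxd (4.58), Hoxc minus Hoxd (2.08), and promoters for NELFE minus SPT5 (-3.85). These alternatives count weak peaks, which the main values leave out. The share of strong peaks has no such alternative. Leaving out each replicate number in turn gave, for coverage, -0.463 to 0.00145 (NELFB:HA minus NELFE), 0.203 to 0.906 (NELFB:HA minus SPT5) and 0.666 to 0.905 (NELFE minus SPT5), and for promoters -2.56 to 2.56, 2.56 to 5.13 and 2.56 to 5.13. It gave -601.5 to 1887.5 bp for the width difference and -6.15 to 6.97 for the rank difference. The cause was not tested. The promoter difference between Hox and other genes lay between -37.7 and -37.5 when a replicate number was left out and kept its sign under each alternative run, with -29.5 at a q of 1e-05 or less and -38.9 in the NELF libraries alone (exact permutation p = 0.125). It was largest, at -65.5 (SD 6.35, exact permutation p = 0.03125, adjusted p = 0.0781), against only the 8735 other genes with a promoter of at least 14.5 CpG. The Hox genes were not narrowed by CpG in that run. With a replicate block, the coverage differences are the same by construction, with SDs of 0.328 for -0.231, 0.497 for 0.555 and 0.169 for 0.785, and it changed no call. With flanks of 500 bp the count of Hox promoters with a strong peak became 0 in NELFB:HA 2, and with 2000 bp it became 2 in NELFE 1. With 6 libraries of unequal depth, no adjusted p below 0.05 was reached.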
